A study of Mus musculus with 6 samples.

Results

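The genes described here are 10 genes of the primitive endoderm, Gata4, Gata6, Sox17, Sox7, Hnf4a, Pdgfra, Dab2, Amn, Lama1 and Lamb1, taken from a list of symbols that was drawn up with earlier results of these data known. All 10 were found among the 19938 genes read by a probe set with 1 symbol, and the brightest probe set of each was used. Transcript levels were measured on 6 GeneChip Mouse Gene 1.0 ST arrays, a one-colour array, in V6.5 mouse embryonic stem cells. Of the 3 lines, 2 carried an inducible short hairpin RNA against Pcgf6 (shRNA1 and shRNA2, here hairpin 1 and hairpin 2) and the other a scrambled hairpin. Each line was measured on 1 array with doxycycline (dox) at 1 µg/ml and on 1 array without it, which gave groups of 2 induced and 2 uninduced Pcgf6 hairpin arrays and 1 induced and 1 uninduced scrambled array. The 2 arrays of a line are called a pair. All lines were grown with serum and leukaemia inhibitory factor on inactivated DR4 mouse embryo fibroblasts, so RNA of these feeder cells can be part of every sample. Neither the time in dox nor whether a line was a clone or a pool of cells is stated in the labels.

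The primitive endoderm is the epithelium that separates from the pluripotent epiblast in the late blastocyst and goes on to form the visceral and parietal endoderm of the yolk sacs. FGF4 from epiblast precursors acts through FGF receptors and ERK to sustain GATA6 in the other cells, and GATA6 and NANOG oppose each other. GATA6 is followed by SOX17, GATA4 and SOX7, and the maturing epithelium lays down a laminin and collagen IV basement membrane and takes up ligands by endocytosis. Stem cell cultures can hold a few cells of this kind. Several of the genes are not restricted to it: fibroblasts, for instance, express Pdgfra, Lamb1 and Dab2.

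The knockdown and the arrays were checked first. Pcgf6 measured 9.39 and 9.27 on the log2 scale on the induced hairpin 1 and hairpin 2 arrays, and between 11.56 and 11.82 on the 4 other arrays. The change with dox over both hairpins was -2.30 (SE 0.10, n = 2 against 2, limma adjusted p = 0.000846). The medians over all probe sets of an array lay between 7.02 and 7.08. As markers of the labelled cell type, the pluripotency factor genes Pou5f1 and Nanog lay between 12.55 and 12.64 and between 12.06 and 12.47. The 27 measured feeder fibroblast genes averaged 9.84 (with dox) and 9.82 (without) in hairpin 1 cells, 10.19 and 9.75 in hairpin 2 cells, and 9.50 and 8.98 in scrambled cells, so the uninduced scrambled array was the lowest and induced hairpin 2 the highest.

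Promoter sequence was available for 5 of the 10 genes, Hnf4a, Pdgfra, Dab2, Amn and Lamb1, with 7 listed starts in all. The 250 bases before each start were searched on both strands for CACGTG (the E-box read by MGA and MAX of the Pcgf6 complex), GGCGGGAA (an E2F site), and AGATAA and TGATAA (both GATA sites). The matches were 1 E-box at Amn, 1 AGATAA at Hnf4a and 1 TGATAA at Dab2, and GGCGGGAA was in none. Of all 32851 windows of this length, 6.02% held CACGTG, 1.86% GGCGGGAA, 9.99% AGATAA and 7.94% TGATAA. The 3 windows with a match are printed, 5′ to 3′ as in RefSeq on GRCm38.p6, up to where the annotated span of the gene begins, because they show where the letters that this repressor complex or the GATA members can read lie. That span begins 46 bases before the listed start for Hnf4a and 1 base before it for Dab2, and those bases are left out. Capitals mark the match.
Amn, chr12:111270846-111271095, + strand: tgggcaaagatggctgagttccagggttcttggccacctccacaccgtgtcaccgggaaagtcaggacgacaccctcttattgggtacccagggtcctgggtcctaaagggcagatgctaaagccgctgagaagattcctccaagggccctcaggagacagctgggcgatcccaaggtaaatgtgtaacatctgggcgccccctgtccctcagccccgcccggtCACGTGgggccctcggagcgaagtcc
Hnf4a, chr2:163506607-163506810, + strand: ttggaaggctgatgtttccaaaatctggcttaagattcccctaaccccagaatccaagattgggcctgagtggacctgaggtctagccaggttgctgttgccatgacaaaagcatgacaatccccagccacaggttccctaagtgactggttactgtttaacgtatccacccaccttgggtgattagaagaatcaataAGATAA
Dab2, chr15:6299539-6299787, + strand: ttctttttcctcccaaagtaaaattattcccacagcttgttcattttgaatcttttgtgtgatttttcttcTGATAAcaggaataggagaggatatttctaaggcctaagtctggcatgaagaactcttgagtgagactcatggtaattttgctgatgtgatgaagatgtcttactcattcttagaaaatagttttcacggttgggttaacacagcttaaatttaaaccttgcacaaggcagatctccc
The E-box of Amn began 26 bases before the start, the AGATAA of Hnf4a 52 bases before and the TGATAA of Dab2 179 bases before. A match describes these letters and not binding.

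None of the 10 genes passed the threshold of an adjusted p under 0.05 in any of the 4 comparisons made with limma over all 19938 genes. The genes differed in how widely they ranged over the arrays. The range over the 6 arrays was 2.33 on the log2 scale for Pdgfra, 1.27 for Dab2 and 0.83 for Gata6. It was 0.53 for Lamb1, 0.50 for Lama1, 0.45 for Hnf4a, 0.42 for Sox7, 0.39 for Sox17, 0.30 for Gata4 and 0.26 for Amn. The median range of all genes was 0.29. A range as wide as that of Pdgfra was found for 0.0702% of genes, of Dab2 for 1.18% and of Gata6 for 3.8%. For Lamb1, Lama1, Hnf4a, Sox7 and Sox17 that share was 12.7%, 14.2%, 18.9%, 23.2% and 26.7%. For Gata4 and Amn it was 47.3% and 58.9%.

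**Figure D1:**
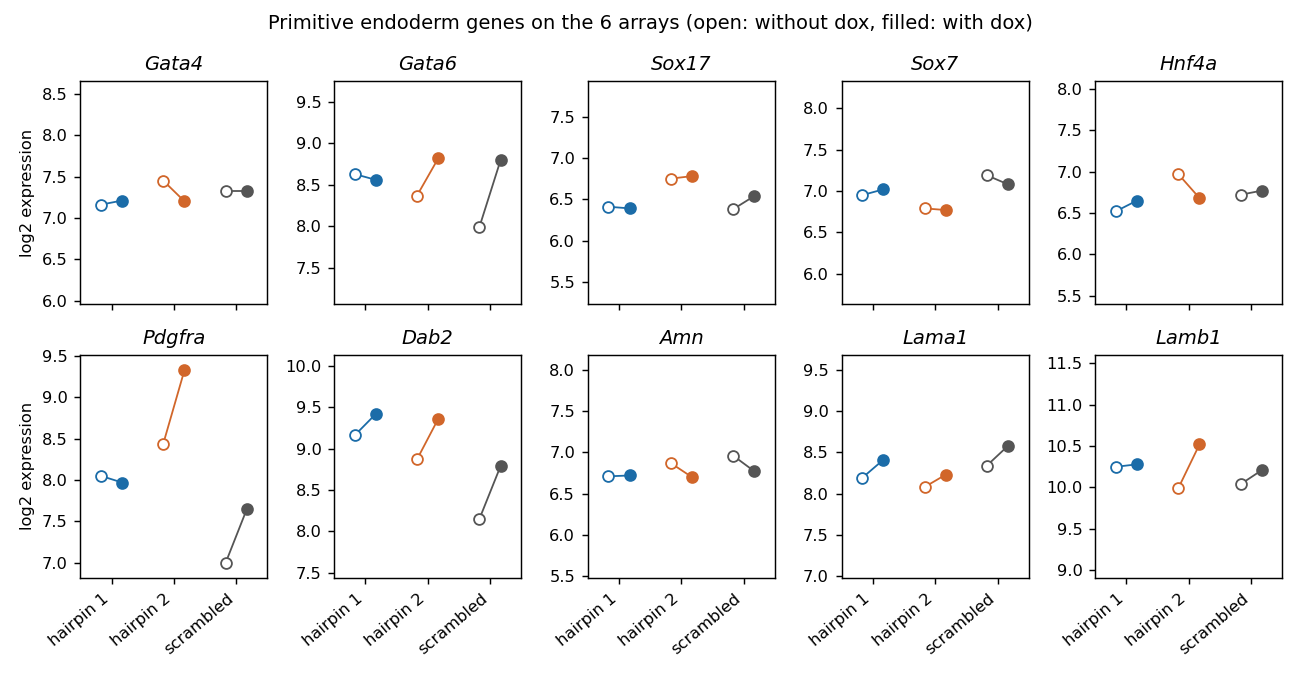
Log2 expression of the 10 primitive endoderm genes on each array, by line (hairpin 1, hairpin 2, scrambled), with open points for arrays without dox and filled points for arrays with dox. Each point is 1 array and every panel spans the same number of log2 units. Pdgfra runs from 7.00 to 9.33 and Dab2 from 8.15 to 9.42, while Gata4 and Amn stay within 0.30 and 0.26.

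The transcription factors of the lineage are given first. Gata6, the earliest of them, measured 8.56 (with dox) and 8.63 (without) in hairpin 1 cells, 8.82 and 8.37 in hairpin 2 cells, and 8.80 and 7.99 in scrambled cells. The uninduced scrambled array was the lowest of the 6, and the induced and uninduced hairpin arrays overlapped. Over both hairpins the change of Gata6 with dox was 0.19 (SE 0.13, n = 2 against 2, limma adjusted p = 0.72), with a 95% interval from -0.12 to 0.51. The scrambled pair, with no replicate, differed by 0.81, the largest value of that pair among the 10 genes. The feeder fibroblast genes had median changes of 0.01, 0.46 and 0.56 in the pairs of hairpin 1, hairpin 2 and scrambled, next to -0.06, 0.45 and 0.81 for Gata6. The part of feeder RNA in these values, and in those of Pdgfra and Dab2 below, was not tested. Here as elsewhere, fewer cells of a type cannot be told apart from less RNA per cell.

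Gata4, which acts with Gata6 in the same lineage, measured 7.21 and 7.16 with and without dox in hairpin 1 cells, 7.20 and 7.45 in hairpin 2 cells, and 7.32 on both scrambled arrays. Its change over both hairpins was -0.10 (SE 0.12, limma adjusted p = 0.858), with a 95% interval from -0.38 to 0.18. Sox17, the SOX factor that follows Gata6, measured 6.39 and 6.41 in hairpin 1 cells, 6.78 and 6.75 in hairpin 2 cells, and 6.54 and 6.38 in scrambled cells. Both hairpin 2 arrays were thus the highest for Sox17, with or without dox, and the change over both hairpins was 0.00 (SE 0.17, interval -0.40 to 0.40, limma adjusted p = 1). Its close relative Sox7 measured 7.02 and 6.95, 6.77 and 6.79, and 7.08 and 7.19 in the same order. Both scrambled arrays were the highest for Sox7, whose change over both hairpins was 0.03 (SE 0.12, interval -0.25 to 0.31). Hnf4a, a nuclear receptor of the visceral endoderm, measured 6.65 and 6.52 in hairpin 1 cells, 6.68 and 6.97 in hairpin 2 cells, and 6.77 and 6.72 in scrambled cells. The pairs of Hnf4a went different ways, and the change over both hairpins was -0.08 (SE 0.15, interval -0.44 to 0.29).

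The receptor gene Pdgfra, whose tyrosine kinase product binds PDGF and marks primitive endoderm precursors, varied most. It measured 7.97 (with dox) and 8.05 (without) in hairpin 1 cells, 9.33 and 8.44 in hairpin 2 cells, and 7.65 and 7.00 in scrambled cells. Induced hairpin 2 was the highest and uninduced scrambled the lowest array, as for the feeder genes. Under hairpin 1 the pair differed by -0.07, under hairpin 2 by 0.88 and in the scrambled pair by 0.65. The mean was 8.65 ± 0.96 (SD, n = 2) with and 8.25 ± 0.28 (SD, n = 2) without dox for the Pcgf6 hairpins, a change of 0.41 (SE 0.40, interval -0.56 to 1.37, limma adjusted p = 0.825). Without the induced hairpin 2 array the change of Pdgfra was -0.27, and without the induced hairpin 1 array 1.08.

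Dab2 encodes an endocytic adaptor for receptors of the LDL receptor family and is needed in the visceral endoderm. It measured 9.42 (with dox) and 9.16 (without) in hairpin 1 cells, 9.36 and 8.87 in hairpin 2 cells, and 8.79 and 8.15 in scrambled cells. Dab2 was thus higher with dox in every pair, and both scrambled arrays lay below all 4 hairpin arrays. The mean was 9.39 ± 0.04 (SD, n = 2) with and 9.01 ± 0.20 (SD, n = 2) without dox, a change of 0.37 (SE 0.12, interval 0.10 to 0.65, limma adjusted p = 0.49). A second, dim probe set of Dab2, matched to a single cDNA, lay between 4.01 and 4.13 on all arrays. It differed by 0.08, -0.13 and 0.02 in the pairs of hairpin 1, hairpin 2 and scrambled. On every array it lay below the median of 1027 olfactory receptor genes, which stem cells are not thought to use (4.38 to 4.45). A mean of both Dab2 probe sets, given below, takes in these nearly flat values and so gives smaller differences. Amn, the membrane anchor of the cubilin receptor in the same uptake route, measured 6.72 and 6.71 in hairpin 1 cells, 6.70 and 6.87 in hairpin 2 cells, and 6.77 and 6.96 in scrambled cells. The groups of Amn overlapped, and the change over both hairpins was -0.08 (SE 0.09, interval -0.30 to 0.14). The window with the E-box printed above belongs to this gene.

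Lama1 and Lamb1 encode the alpha and beta chains of laminin-111, the first laminin of the embryonic basement membrane. Lama1 measured 8.41 (with dox) and 8.19 (without) in hairpin 1 cells, 8.23 and 8.08 in hairpin 2 cells, and 8.58 and 8.34 in scrambled cells. Lamb1 measured 10.28 and 10.25, 10.52 and 9.99, and 10.21 and 10.04 in the same order. Both genes were higher with dox in each of the 3 pairs, by 0.21, 0.16 and 0.24 for Lama1 and by 0.03, 0.53 and 0.17 for Lamb1. The change over both hairpins was 0.19 (SE 0.10, interval -0.06 to 0.43, limma adjusted p = 0.657) for Lama1 and 0.28 (SE 0.13, interval -0.03 to 0.59, limma adjusted p = 0.603) for Lamb1.

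**Figure D2:**
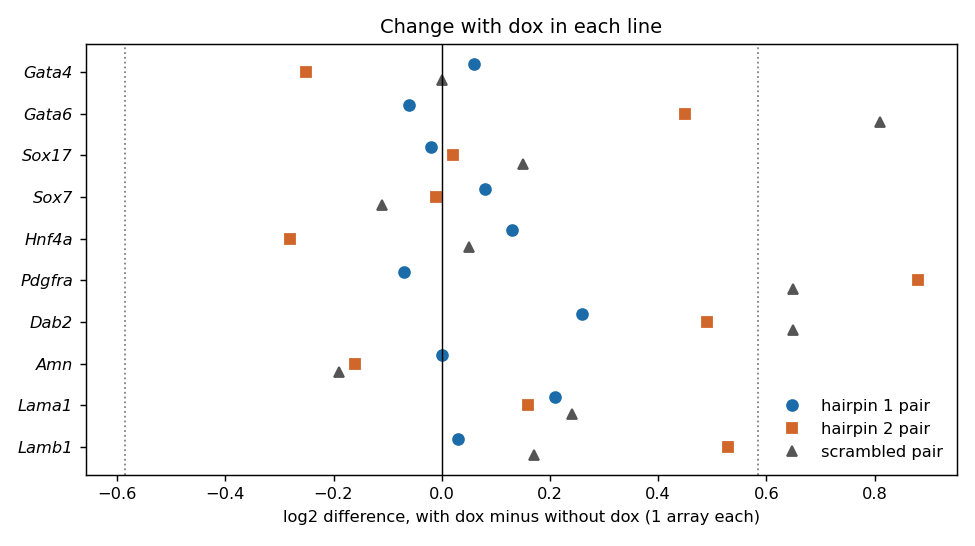
Log2 difference between the array with and the array without dox for each gene in the pairs of hairpin 1, hairpin 2 and scrambled, 1 array against 1. Dotted lines mark 1.5-fold. Pdgfra under hairpin 2 (0.88) and Gata6, Pdgfra and Dab2 in the scrambled pair (0.81, 0.65 and 0.65) lie past it, and no gene does under hairpin 1.

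The main comparison asked whether the genes differed with dox in cells with a Pcgf6 hairpin. By limma, 0 of 10 genes were called, against 0.201% of all genes, and 1 of 10 (Dab2) had an unadjusted p under 0.05, against 8.75%. With the mean of all probe sets of a gene, which brings in the dim probe set of Dab2, 0 of 10 did, and Dab2 measured 0.18 (limma adjusted p = 0.638). The median change of the 10 genes was 0.11 on the log2 scale, beside -0.01 for all genes. Induced and uninduced arrays did not overlap for Dab2, Lama1 and Lamb1, all higher with dox, and this held for 17.9% of all genes, while 0 of 10 were lower without overlap, against 21.8%. Past 1.5-fold and higher with dox were 0 of 10 genes under hairpin 1, 1 of 10 under hairpin 2 and 3 of 10 in the scrambled pair, against 0.627%, 2.17% and 1.48% of all genes. None of the 10 was lower by that much in the hairpin 1, hairpin 2 or scrambled pair, against 0.241%, 0.446% and 0.211% of all genes. The number of arrays limits these comparisons, and the intervals above come from a fit that does not use the pairs. A fit with the hairpin number as a block leaves 1 residual degree of freedom. Its SE was 0.21 instead of 0.40 for Pdgfra and 0.09 instead of 0.17 for Sox17. For Gata6 and Lamb1 the SE stayed at 0.13, and for Amn it was 0.10 instead of 0.09. None of the 10 genes passed with the block either, and Dab2 had the smallest adjusted p by limma (adjusted p = 0.346).

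A second comparison asked what accompanied dox in all 3 lines, with the line as a term in the fit. It shares its hairpin arrays with the main comparison. Dab2 differed by 0.46 (SE 0.09, interval 0.25 to 0.68, n = 3 against 3, limma adjusted p = 0.345), a 1.38-fold difference, and by 0.23 (adjusted p = 0.357) with the mean of its probe sets by limma. The values were 0.49 (SE 0.17, adjusted p = 0.369) for Pdgfra, 0.40 (SE 0.15, adjusted p = 0.399) for Gata6, 0.24 (SE 0.10, adjusted p = 0.432) for Lamb1 and 0.20 (SE 0.07, adjusted p = 0.363) for Lama1 by limma. Gata4, Sox17, Sox7, Hnf4a and Amn measured between -0.12 and 0.05. By limma 0 of 10 genes and 0 of 19938 genes (0%) passed. An unadjusted p under 0.05 with a higher value was reached by Dab2, Pdgfra, Gata6 and Lama1, which is 4 of 10 genes against 6.98% of all genes. Dab2, Lama1 and Lamb1 were higher with dox in all 3 pairs, as were 15.2% of all genes. Of the feeder fibroblast genes, 19 of 27 had an unadjusted p under 0.05 in either direction by limma, against 11.6% of all genes. Their list median in this comparison was 0.38.

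The lines were next compared before induction. Dab2 was higher by 0.87 in the uninduced Pcgf6 hairpin arrays than in the uninduced scrambled array (SE 0.14, interval 0.53 to 1.21, n = 2 against 1, limma adjusted p = 0.245), and by 0.43 (limma adjusted p = 0.378) with the mean of its probe sets. Pdgfra differed by 1.25 (SE 0.49, interval 0.06 to 2.44, adjusted p = 0.598) and Gata6 by 0.51 (SE 0.16, interval 0.12 to 0.89, adjusted p = 0.464) by limma. Sox7 measured -0.32 (SE 0.14, interval -0.67 to 0.02, limma adjusted p = 0.631) and the 6 other genes lay between -0.21 and 0.20. By limma 0 of 10 genes and 0 of all genes (0%) passed, and the unadjusted p was under 0.05 for 3 of 10 against 8.06% of all genes. With the hairpin number as a block 17 genes passed, none of them among the 10, where Dab2 had the smallest adjusted p by limma (adjusted p = 0.0758). In the same comparison the feeder fibroblast genes had a median of 0.82, with 22 of 27 at an unadjusted p under 0.05, and the 10 epiblast factor genes a median of -0.22. Both scrambled arrays lay below all 4 hairpin arrays for Pdgfra and Dab2, which is 2 of 10 genes against 9.69% of all genes, and for 20 of 27 feeder genes. Only for Sox7 did both lie above, which is 1 of 10 against 8.38%.

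The last comparison set the change with dox in the hairpin lines against that of the scrambled line. Gata6 had the largest value, -0.61 (SE 0.23, interval -1.16 to -0.07, limma adjusted p = 0.999), from 0.81 in the scrambled pair and -0.06 and 0.45 under the hairpins. Dab2 and Pdgfra measured -0.27 (SE 0.20) and -0.25 (SE 0.70), and the 7 other genes between -0.15 and 0.14. By limma 0 of 10 genes were called, against 0.0702% of all genes, and 1 of 10 (Gata6) had an unadjusted p under 0.05, against 4.55%. With the hairpin number as a block 23 genes passed instead of 14, again with 0 of the 10. Of the 9 definitive endoderm and streak genes, a lineage that also uses Gata6 and Sox17, 7 measured above 0 in the same scrambled pair, as did 9269 of 19938 genes, and 3 of 9 were past 1.5-fold there, against 1.48%. The homeobox genes Mixl1 and Lhx1, the most extreme of the 9 and chosen after their values were seen, differed by 1.40 and 0.84 in that pair. They differed by 0.11 and -0.24 under hairpin 1 and by 0.27 and 0.17 under hairpin 2. Gsc and Trh, named because they were the genes of the 9 not above 0 in the scrambled pair, measured -0.21 and -0.05 there.

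**Figure D3:**
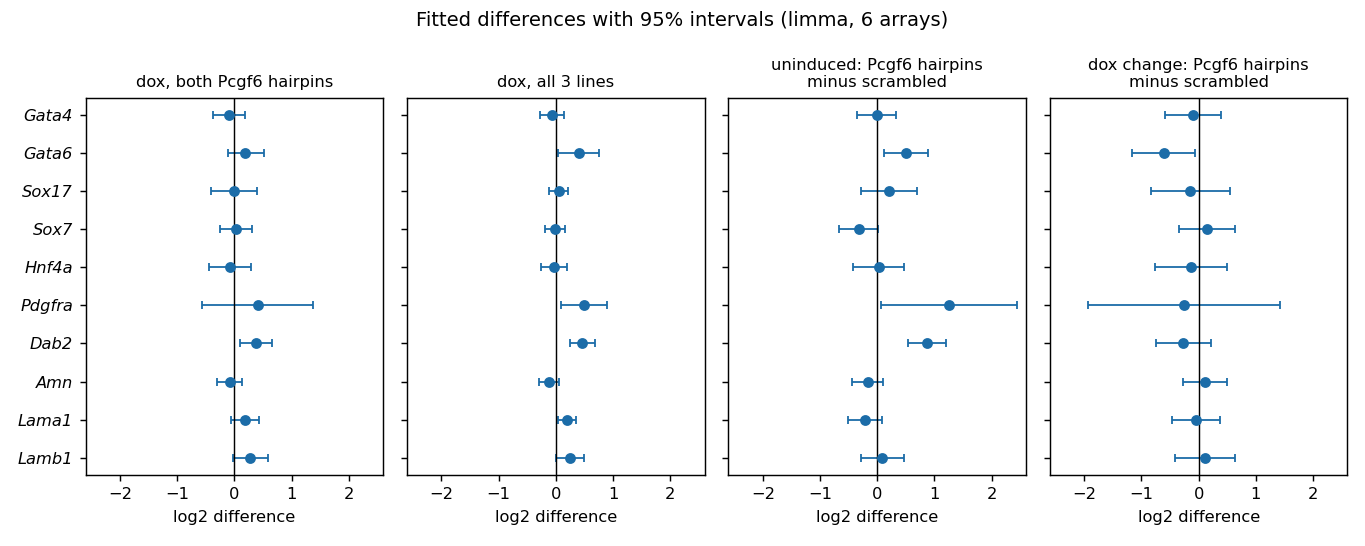
Fitted log2 differences (points) with 95% intervals (bars) for the 10 genes in 4 comparisons by limma over the 6 arrays: dox in both Pcgf6 hairpin lines, dox in all 3 lines, uninduced Pcgf6 hairpin lines minus uninduced scrambled, and the dox change of the hairpin lines minus that of scrambled. Dab2 lies above 0 in the first 3, at 0.37, 0.46 and 0.87, and no gene passed after adjustment over all genes.

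The order of the arrays for Pdgfra and Dab2 was set beside the feeder fibroblast genes. Across the 6 arrays, the Pearson correlation with the mean level of the 27 feeder genes was 0.924 for Pdgfra, 0.936 for Dab2, 0.77 for Gata6, 0.727 for Lamb1 and 0.551 for Sox17. It was -0.156 for Hnf4a, -0.353 for Lama1, -0.403 for Gata4, and -0.835 for both Sox7 and Amn. By rank (Spearman), the correlation was 0.943 for Dab2, 0.829 for Lamb1, 0.771 for Pdgfra, 0.6 for Gata6 and 0.486 for Sox17. The same measure gave -0.2 for Lama1, -0.543 for Hnf4a, -0.6 for Gata4, -0.771 for Sox7 and -0.886 for Amn. These are descriptions over 6 arrays that share lines and one normalization. Lama1 and Lamb1, 2 chains of 1 laminin, thus lay on different sides of 0.

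**Figure D4:**
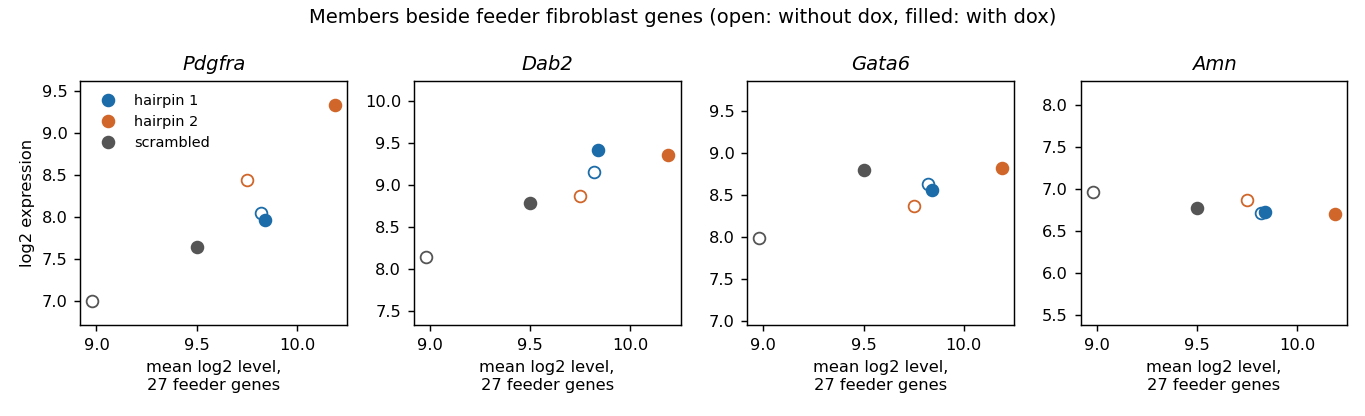
Log2 expression of Pdgfra, Dab2, Gata6 and Amn (vertical axis, the same span in each panel) against the mean log2 level of 27 feeder fibroblast genes (horizontal axis), 1 point per array, open without and filled with dox. Pdgfra and Dab2 are lowest on the uninduced scrambled array, at 7.00 and 8.15, where the feeder mean is 8.98.

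For Pdgfra and Dab2, whose ranges were at least 1 on the log2 scale, the genes with the most similar profile were sought among 1755 genes that ranged over at least 0.58. Closest to Pdgfra were Serpinb2, a plasminogen activator inhibitor gene (Pearson r = 0.996 over 6 arrays), the ceruloplasmin gene Cp (0.995) and the interferon-inducible gene Ifi207 (0.995). Closest to Dab2 were Timp1, an inhibitor of matrix metalloproteinases (0.997), the sorting nexin gene Snx7 (0.995) and the annexin gene Anxa1 (0.994). None of the 6 was on the feeder list, but that list holds only 27 measured genes, so absence from it does not separate them from feeder genes. All 6 were lowest on the uninduced scrambled array, as was the feeder mean. Over so few arrays the likeness is a description.

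The other genes of the pathway were then examined by role, with 0 members of any of these lists called by limma in the main comparison. An unadjusted p under 0.05, reached by 8.75% of all genes, was reached by 2 of 10 epiblast, 2 of 5 PDGF, 3 of 9 endocytic, 1 of 11 parietal endoderm, 2 of 9 definitive endoderm, 3 of 10 trophoblast, 1 of 15 family relative and 4 of 27 feeder fibroblast genes. Of the FGF and ERK list 14 of 16 genes were measured, with a median change of 0.06 and 0 at an unadjusted p under 0.05. The ligand gene Fgf4 measured -0.12 (SE 0.11), the receptor gene Fgfr2 -0.16 (SE 0.09), the kinase gene Map2k2 0.16 (SE 0.09) and the ERK feedback inhibitor gene Spry4 -0.15 (SE 0.15). The epiblast factor genes had a median change of 0.00 over 10 genes. Among them Prdm14, a repressor of FGF signalling in stem cells, measured 0.31 (SE 0.09) over the hairpins and -0.25 in the scrambled pair, and Klf2 -0.29 (SE 0.13) and 0.21. The other factors named were Klf4 (0.23, SE 0.09) and the Nodal co-receptor gene Tdgf1 (-0.15, SE 0.08).

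All 5 genes of the PDGF list were measured, with a median change of 0.25. The ligand genes Pdgfc and Pdgfb measured 0.34 (SE 0.12) and 0.33 (SE 0.08), with 0.27 for each in the scrambled pair. The receptor gene Pdgfrb, a mesenchymal gene, followed the pattern of Pdgfra at -0.09, 0.60 and 0.71 in the pairs of hairpin 1, hairpin 2 and scrambled, and the ligand gene Pdgfd measured -0.10, 0.48 and 0.66.

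The basement membrane list had 16 measured genes, a median change of 0.15 and 4 genes at an unadjusted p under 0.05. The collagen chaperone gene Serpinh1 measured 0.57 (SE 0.22) and the collagen prolyl hydroxylase gene P4ha2 0.52 (SE 0.14). These are means over the hairpin pairs, which differed by 1.08 and 0.79 under hairpin 2 and by 0.05 and 0.25 under hairpin 1. The nidogen gene Nid1, a linker between laminin and collagen IV, measured 0.41 (SE 0.15) and the laminin chain gene Lamb2 0.30 (SE 0.19). Among 9 measured endocytic partners the median change was 0.09. The megalin gene Lrp2, a receptor that DAB2 serves, measured -0.46 (SE 0.11), with -0.50, -0.43 and -0.29 in the pairs of hairpin 1, hairpin 2 and scrambled. The secreted chaperone gene Clu measured 0.42 (SE 0.08), with 0.44, 0.40 and 0.31, the LDL receptor family gene Lrp1 0.38 (SE 0.15), with 0.16, 0.60 and 0.61, and the motor gene Myo6 0.17 (SE 0.13). In all 3 pairs Lrp2 thus lay on the other side of 0 from Dab2 and Lrp1 on the same side, and none of the 3 genes passed.

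The later derivatives of the lineage gave as few calls. Over 20 measured visceral endoderm genes the median change was 0.01, with 3 at an unadjusted p under 0.05. The transferrin gene Trf measured 0.53 (SE 0.09, limma adjusted p = 0.16), with 0.64 and 0.43 under the hairpins and -0.08 in the scrambled pair. Cer1, which encodes the Nodal and Wnt antagonist of the anterior visceral endoderm, measured -0.64 (SE 0.32), with -0.74, -0.54 and 0.37 in the 3 pairs. Lefty1 measured 0.29 (SE 0.12) and Bmp2 0.27 (SE 0.20). The alpha-fetoprotein gene Afp, the visceral endoderm marker most used, lay between 6.00 and 6.12 on all arrays and was chosen after its values were seen. Of 11 parietal endoderm genes the median change was 0.23. The keratin gene Krt19 measured 0.66 (SE 0.12, limma adjusted p = 0.188), with 0.43, 0.89 and 0.45 in the 3 pairs, and the genes Plat, Cdh2 and Thbd measured 0.34 (SE 0.28), 0.32 (SE 0.15) and 0.28 (SE 0.17).

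Lists of neighbouring cell types were examined last. The 9 definitive endoderm genes had medians of -0.14 and -0.08 with the Pcgf6 hairpins and of 0.37 with the scrambled one. Gsc measured -0.24 (SE 0.10), Cxcr4 0.24 (SE 0.10) and Foxa2 -0.22 (SE 0.10) over both hairpins. Of 10 trophoblast genes the median change was 0.10, and the simple keratin genes Krt8 and Krt18, shared by trophoblast and primitive endoderm, measured 0.58 (SE 0.10) and 0.56 (SE 0.12), with 0.58 and 0.29 in the scrambled pair. Cdx2 measured 0.24 (SE 0.09) and Tfeb -0.27 (SE 0.14). Of 15 measured family relatives of the 10 genes, the receptor kinase gene Kit measured 0.60 (SE 0.09, limma adjusted p = 0.105), with 0.63 and 0.57 under the hairpins. Dab1 measured -0.30 (SE 0.15), Gata3 0.27 (SE 0.17) and Lama4 0.27 (SE 0.20). In the scrambled pair Kit, Dab1, Gata3 and Lama4 measured 0.03, 0.35, -0.06 and 0.43. The 27 feeder fibroblast genes had a median change of 0.23, with Tgfbi at 0.41 (SE 0.20), Lox at 0.38 (SE 0.22), Col5a2 at 0.37 (SE 0.14) and Thbs2 at 0.36 (SE 0.30).

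**Figure D5:**
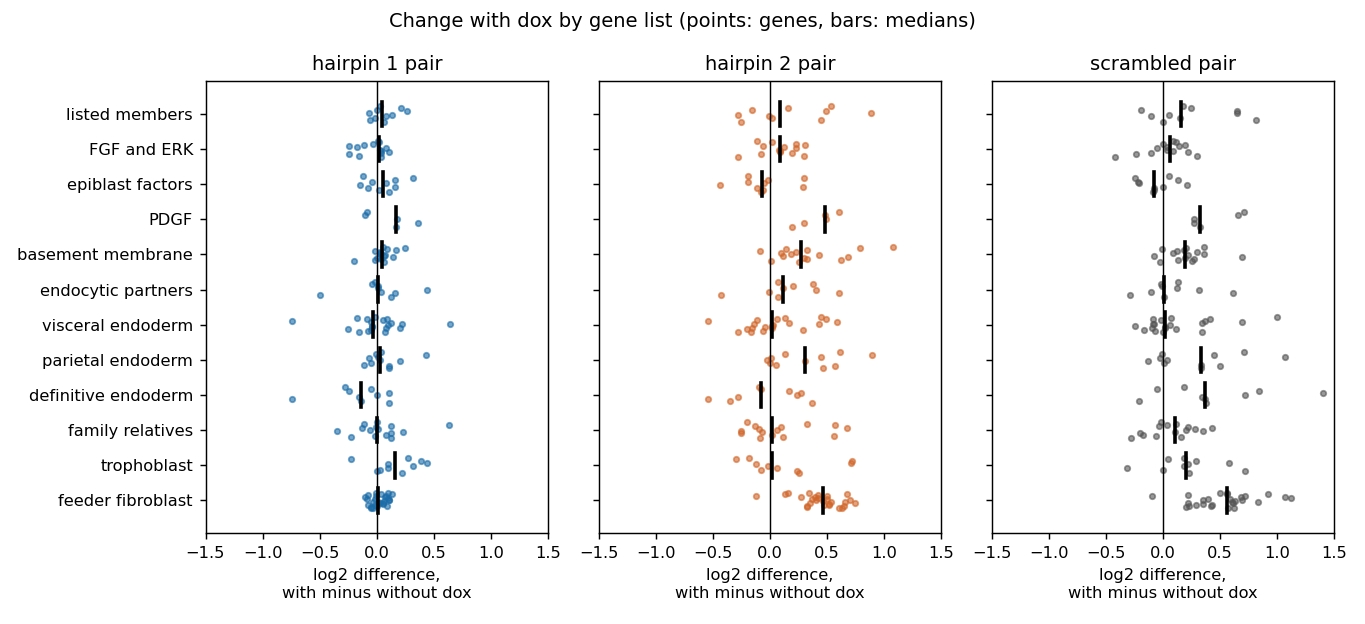
Log2 difference with minus without dox for each gene (points) and the median (bars) of 12 gene lists in the pairs of hairpin 1, hairpin 2 and scrambled. The feeder fibroblast bar lies at 0.01, 0.46 and 0.56 and that of the 10 primitive endoderm genes at 0.05, 0.09 and 0.16.

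The levels were placed against genes that stem cells are not thought to use, as a rough check of the label. Over 1027 olfactory receptor genes the 95th percentile lay between 6.17 and 6.34 on the 6 arrays, and all 10 genes lay above it on every array. The lower quartile of all genes lay between 5.98 and 6.06, so many genes of the array lie above that percentile as well. Sox17 was closest to the olfactory percentile, at 6.38 without dox in the scrambled line. Gata4, Sox17, Sox7, Hnf4a and Amn lay below the median of all genes, between 7.52 and 7.58, on every array. Pdgfra lay below it only on the uninduced scrambled array, at 7.00 against 7.52. Probe sets differ in how brightly they read, so this placement gives no detection call.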

How the data were processed

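The deposited values are log2 expression, deposited by the authors; the submitters' processing notes name RMA and Affymetrix Power Tools. RMA gives all arrays nearly the same distribution, which hides any shift common to most genes. Versions are not given in the sources used here. Of 35556 probe sets, 21789 had 1 symbol, 1621 several and 12146 none, and 21698 were matched to RefSeq of GRCm38.p6 by Entrez identifier. The brightest probe set per gene gave 19938 genes, tested without a filter. No value column was left unmatched.

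limma 3.58.1 in R 4.3.3 was fitted over all 6 arrays and genes, with 1 mean per group (2 residual and 4.44 prior degrees of freedom) or, for dox in all lines, line and dox terms (4.86 prior). Tests were two-sided with Benjamini-Hochberg adjustment at 0.05. Single scrambled arrays were taken to vary like the hairpin groups. With 1 mean per group, the spread comes from hairpin 1 against hairpin 2 within the induced and within the uninduced arrays. It thus holds differences between these lines. With line and dox terms it comes from differences between lines in the change with dox. No label names separate cultures, so the spread behind each p-value may also be partly technical. The code was tested on simulated data.

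The hairpin number pairs arrays because both come from the same line (correlation of deviations 0.181 across genes). The members and lists were chosen with earlier results of these data known. Named were the members, Pcgf6, the 4 strongest genes per list over both hairpins, and the 3 closest profiles of members ranging over at least 1. Pou5f1 and Nanog were named as markers of the labelled cell type, and Mixl1, Lhx1, Trh and Afp after their values were seen. Other settings tried were the block, other normalizations, filters, probe-set means, other priors and each array left out.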

Additional observations from a re-analysis of the deposited data

How the results depend on the processing

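None of the 10 primitive endoderm genes passed in any of the 4 comparisons under any setting run, each array left out in turn included, and the smallest adjusted p by limma was 0.0502 (Pdgfra, dox over all 3 lines without either hairpin 1 array). Counts over all genes moved more. For dox over both hairpins 7 genes passed without the dimmest 50% of genes and 62 with an intensity trend, against 40. For the difference from scrambled the count was 23 with the replicate block, 22 with median centring, 9 without the dimmest 25% and 4 without the dimmest 50%, against 14. With the replicate block 17 genes passed in the uninduced comparison, against 0, and for dox over all lines 54 passed with the Pcgf6 hairpin arrays only, against 0. The replicate block, or its removal for dox over all lines, changed no call of the 10 genes. Without the dimmest 50%, which left 5 of the 10, their median was 0.28 for dox over both hairpins, -0.25 for the difference, 0.51 uninduced and 0.40 over all lines, against 0.11, -0.12, 0.05 and 0.13. With the mean of all probe sets Dab2 measured 0.18, -0.16, 0.43 and 0.23, against 0.37, -0.27, 0.87 and 0.46.

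With each array left out in turn, genes called ranged from 14 to 40 for dox over both hairpins, 0 to 4 for the difference, 0 uninduced and 0 to 54 over all lines. The medians of the 10 genes ranged from 0.00 to 0.16, -0.19 to 0.00, -0.06 to 0.19 and 0.10 to 0.14. Signs turned for these values, none of which had passed. The change over both hairpins ranged from -0.25 to 0.05 for Gata4, -0.19 to 0.19 for Sox17, -0.09 to 0.16 for Sox7, -0.30 to 0.15 for Hnf4a, -0.27 to 1.08 for Pdgfra, -0.36 to 0.05 for Spry4, -0.24 to 0.00 for Fgf4, -0.09 to 0.47 for Pdgfd, 0.00 to 0.34 for Myo6, -0.05 to 0.59 for Bmp2, -0.09 to 0.77 for Plat, -0.06 to 0.60 for Lama4 and -0.13 to 0.85 for Thbs2. The difference from scrambled ranged from -0.35 to 0.04 for Sox17, -0.93 to 0.43 for Pdgfra, -0.14 to 0.04 for Lama1, -0.02 to 0.24 for Lamb1, -0.25 to 0.05 for Gata4 and -0.36 to 0.10 for Hnf4a. The uninduced comparison ranged from -0.16 to 0.14 for Gata4, -0.05 to 0.21 for Lamb1 and -0.20 to 0.25 for Hnf4a, and dox over all lines from -0.13 to 0.03 for Gata4, -0.12 to 0.09 for Hnf4a and -0.06 to 0.03 for Sox7. With median centring Sox17 measured -0.02 over both hairpins and Hnf4a -0.01 uninduced, and with the hairpin arrays only Sox7 measured 0.03 for dox. The cause was not tested. The difference and the uninduced comparison have no value without the scrambled arrays they need. Scrambled arrays are single, and 6 arrays limit the precision.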
